A study of Mus musculus with 144 samples.

Results

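The chaperonin CCT, also called TRiC, is a barrel of stacked rings in the cytosol, each ring built from 8 different subunits that are products of 8 genes: Tcp1, Cct2, Cct3, Cct4, Cct5, Cct6a, Cct7 and Cct8. It closes around unfolded proteins and releases them folded in a cycle driven by ATP. Actin and tubulin are its best known clients and depend on it to fold, and a cell that changes shape, moves or divides makes much of both. Prefoldin, a separate cytosolic complex, hands actin and tubulin to CCT, and the tubulin cofactors take tubulin over afterwards.

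The 8 genes were taken by their symbols from a table of 55254 gene symbols, and each symbol had 1 row. They were chosen from the values of these same cells: an earlier analysis of the table had shown them higher at day 4. Their levels and differences are therefore a description of these cells with no test, and all 8 passed the filter of an FPKM (fragments per kilobase of exon and 1e+06 reads) of at least 1 in at least 10% of cells, as did 8679 genes in all.

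The cells were Iba1-positive retinal cells, labelled microglia, of Iba1-EGFP mice 16 weeks of age, each sequenced as a library of its own after fluorescence-activated sorting. The reporter of this strain is driven by Iba1, a gene that microglia share with other macrophages. In all, 54 were untreated, 54 were taken on day 2 and 36 on day 4 after nerve crush, spread over 3 plates with 18, 18 and 12 of them each. Since animals are not named in the labels, the cells of a time point were treated as 1 sample: the SD given is over cells, no p-value was computed, and plates serve as the only repeat. Every plate row held cells of a single time point, so that well position and time point cannot be told apart.

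With M for 1e+06, cells held a median of 5.31 M recovered assigned reads (0.190 to 18.9 M), and 3 cells held under 1 M. The median was 4.93 M in untreated cells, 5.32 M on day 2 and 5.80 M on day 4, and the median number of genes that reached 1 FPKM was 2792, 3469 and 3958. Of the 10 microglial genes listed, at least 3 were at 20 FPKM or more in 54, 54 and 35 cells of the 3 time points. At least 3 markers of another cell type reached that level in 15, 15 and 7 cells, most often of Müller glia (9, 7 and 5 cells) and border macrophages (5, 8 and 2 cells). Dkk3 and Aqp4 of the 8 Müller glia markers were at 0 in every cell, and the most frequent one, Apoe, is also a microglial gene.

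The stretches of genome just upstream of 4 of the genes are shown because these genes were higher together on day 4 and because they show how different those stretches are. Each is 150 bases long, ends 1 base before the most upstream of the gene starts given by RefSeq and by the deposited table, is written 5′ to 3′ on the strand of the gene, and comes from RefSeq on build GRCm38.p6. Capitals mark the CCAAT box (CCAAT), the GC box (GGGCGG) and the ETS core (CCGGAAG), searched on both strands.
Cct3: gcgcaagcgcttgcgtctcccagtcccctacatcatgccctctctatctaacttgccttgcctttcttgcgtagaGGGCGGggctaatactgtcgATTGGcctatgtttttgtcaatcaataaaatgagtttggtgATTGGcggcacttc
Cct5: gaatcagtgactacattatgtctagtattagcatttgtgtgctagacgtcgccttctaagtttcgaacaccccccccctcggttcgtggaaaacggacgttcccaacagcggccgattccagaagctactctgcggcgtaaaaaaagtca
Cct7: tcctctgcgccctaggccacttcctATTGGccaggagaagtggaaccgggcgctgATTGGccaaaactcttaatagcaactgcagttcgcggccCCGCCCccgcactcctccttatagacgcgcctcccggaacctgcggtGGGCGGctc
Cct8: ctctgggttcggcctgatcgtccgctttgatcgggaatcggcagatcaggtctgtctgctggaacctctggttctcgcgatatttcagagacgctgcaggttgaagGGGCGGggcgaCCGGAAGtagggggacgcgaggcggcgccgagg
They lie at chr3:88296966-88297115 on the plus strand (Cct3), chr15:31601847-31601996 on the minus strand (Cct5), chr6:85451355-85451504 on the plus strand (Cct7) and chr16:87495874-87496023 on the minus strand (Cct8).

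Of the 8 genes, 7 have an entry in the RefSeq promoter table and Cct4 has none. The GC box was found in the 250 bases upstream of the RefSeq start of 7 of 7, against 32.7% of all 32851 promoters. For Tcp1 and Cct6a that start lies 628 and 358 bases downstream of the start in the deposited table, and for the other 5 at most 42 bases from it. The CCAAT box was found in 4 of 7 (Tcp1, Cct3, Cct6a and Cct7), against 33.8% of all promoters. The ETS core was found in 2 of 7 (Cct2 and Cct8), against 6.91%. The heat shock element in the form GAANNTTC and the E box CACGTG were found in 0 of 7, against 6.69% and 6.02% of all promoters. The Cct5 stretch holds none of these motifs in its last 150 bases, and its GC box lies further upstream. The Cct3 and Cct7 stretches each hold both CCAAT boxes and GC boxes, and of the 3 CCAAT boxes of Cct7 the most upstream lies outside the 150 bases shown. A match is a run of letters, not a measured binding site. The shares are those of all promoter entries, and the shares among the measured genes alone were not computed. Whether these matches are particular to the CCT genes among measured genes was therefore not tested.

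Most values of the CCT genes in single cells were either at 20 FPKM or more or below 1 FPKM, with a class in between. Over the 8 genes and 54 untreated cells, 20.4% of the 432 values were at 20 FPKM or more and 57.2% were below 1 FPKM, and 16 values lay between 10 and 40 FPKM, near the threshold of 20. On day 2 the shares were 28.2% and 47.2% of 432 values, with 32 near the threshold, and on day 4 they were 58.0% and 28.1% of 288 values, with 22 near it. From 1 to under 20 FPKM lay 97 values in untreated cells, more than the 88 at 20 FPKM or more. On day 2 that class held 106 values and on day 4 it held 40. For Cct5 it held 24 of the 54 untreated cells, more than were at 20 FPKM or more. The threshold of 20 FPKM was set with these data in view.

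**Figure D1:**
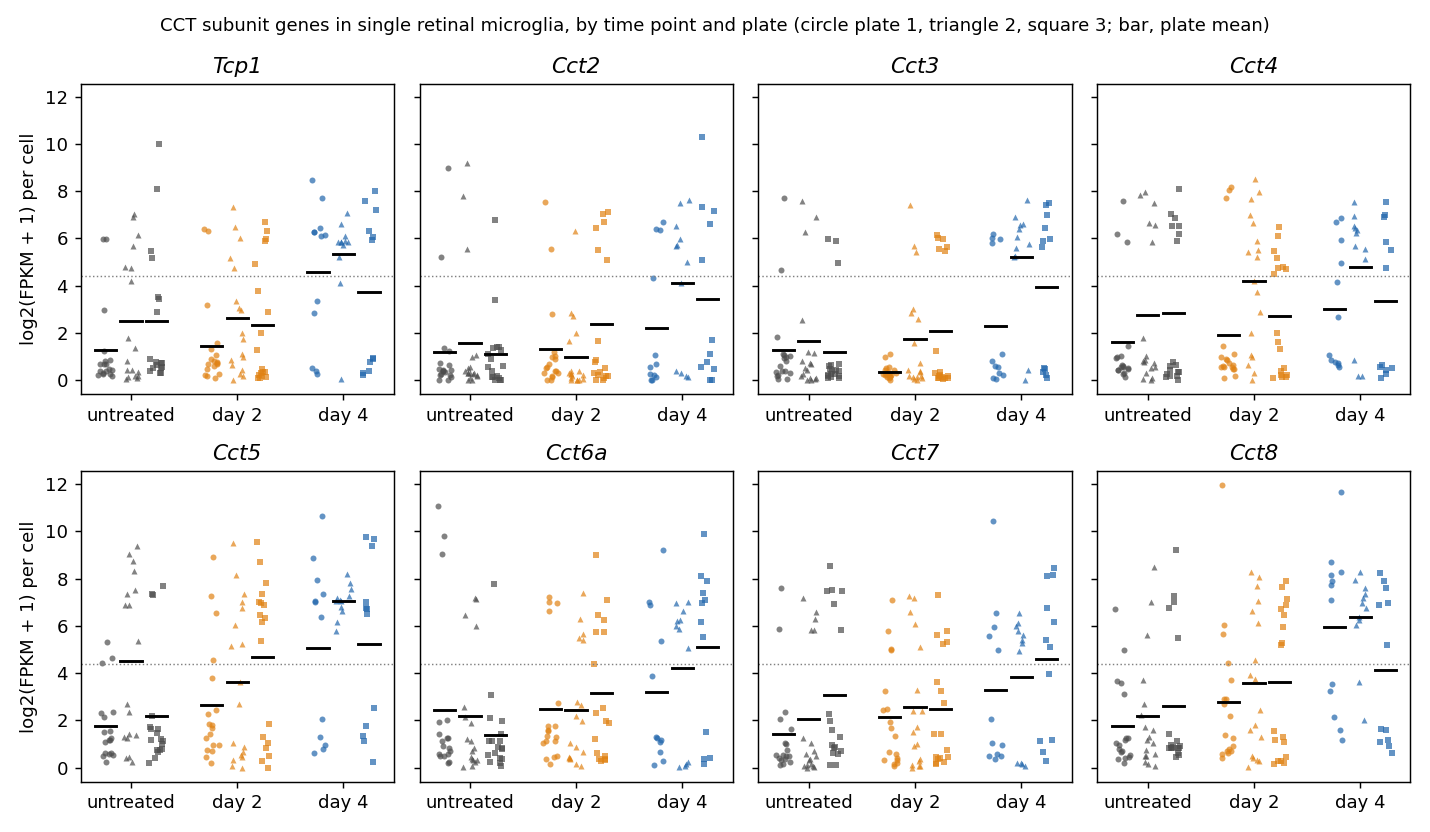
Each point is a cell, with log2(FPKM + 1) on the vertical axis and the time point on the horizontal axis; within a time point the 3 plates stand side by side, circles for plate 1, triangles for plate 2 and squares for plate 3, the bar is the plate mean, and the dotted line is 20 FPKM. In each gene some cells lie at 20 FPKM or more and others below 1 FPKM, with further cells in between. For Cct5 in untreated cells the class in between was the largest, with 24 of 54 cells. On day 4 a larger share of cells is at 20 FPKM or more than at either earlier time, with overlap between the time points in all 8 genes.

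Cct8 (ENSMUSG00000025613, chr16:87483326-87495873, minus strand), the theta subunit, showed the largest difference of the 8. Its FPKM ran from 0.0539 to 591 in untreated cells with a median of 0.997, from 0.0265 to 3979 on day 2 with a median of 3.99, and from 0.534 to 3285 on day 4 with a median of 111. The highest cell held 63.0% of all Cct8 signal on day 2 and 44.1% on day 4, so that means of FPKM (32.7, 117 and 207) rest largely on single cells. The ranges overlap, but cells at 20 FPKM or more went from 10 of 54 to 20 of 54 and 23 of 36. On the log2(FPKM + 1) scale the means were 2.18 ± 2.45, 3.33 ± 2.98 and 5.48 ± 2.98 (SD over cells). Day 4 exceeded untreated by 3.30, with 4.17, 4.18 and 1.55 in the 3 plates.

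Cct5 (ENSMUSG00000022234, chr15:31590800-31601804, minus strand), the epsilon subunit, had the highest mean log2 level of the 8 at every time point. Its FPKM ran from 0.127 to 675 in untreated cells (median 1.69), from 0 to 740 on day 2 (median 4.12) and from 0.183 to 1629 on day 4 (median 120). It was at 20 FPKM or more in 15 of 54, 23 of 54 and 26 of 36 cells, and in plate 2 on day 4 in 12 of 12. Its log2 means were 2.82 ± 2.84, 3.66 ± 3.12 and 5.79 ± 3.04 (SD over cells). The difference between day 4 and untreated was 2.97, with 3.30, 2.55 and 3.06 in the plates, the most even of the 3 largest differences.

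Tcp1 (ENSMUSG00000068039, chr17:12915701-12925067, plus strand) encodes the alpha subunit and takes its name from the t-complex of mouse chromosome 17. Its FPKM ran from 0.0306 to 1009 in untreated cells (median 0.633), from 0 to 160 on day 2 (median 0.902) and from 0.0423 to 360 on day 4 (median 57.1). The cells at 20 FPKM or more numbered 12, 12 and 23, so untreated and day 2 cells had the same count and day 4 stood above both. The difference between day 4 and untreated was 2.45 (3.30, 2.83 and 1.22 in the plates), whereas that between day 2 and untreated was 0.04. Tcp1 overlaps the genes Mrpl18, Gm26130 and Acat3, and 71.3% of its values above 0 were not whole reads, so that its reads may be shared with theirs.

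Cct3 (ENSMUSG00000001416, chr3:88297116-88321767, plus strand), the gamma subunit, showed the same course. Its FPKM had a median of 0.365 (0 to 211) in untreated cells, 0.234 (0 to 168) on day 2 and 48.1 (0 to 199) on day 4. It reached 20 FPKM in 8, 9 and 21 cells, and no day 2 cell of plate 1 did. The difference between day 4 and untreated was 2.46 (1.05, 3.57 and 2.75 in the plates).

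Cct6a (ENSMUSG00000029447, chr5:129786998-129846371, plus strand), the zeta subunit, had a median of 0.837 FPKM (0.0296 to 2173) in untreated cells, 2.20 (0.0539 to 517) on day 2 and 42.8 (0.0226 to 935) on day 4. One untreated cell held 50.8% of its untreated signal, and the mean FPKM of the untreated cells, 79.2, was above that of day 2, 34.7, although fewer cells reached 20 FPKM (8 against 15, and 20 on day 4). The difference in log2 means between day 4 and untreated was 2.18, and ranged most widely over plates (0.75, 2.03 and 3.75). The gene overlaps Psph and Snora15, and 49.3% of its values above 0 were not whole reads. Its paralog Cct6b, known from testis, was at 1 FPKM or more in 2, 1 and 1 cells, and Cct8l1 was listed at 0 in every cell.

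Cct2 (ENSMUSG00000034024, chr10:117051001-117063814, minus strand), the beta subunit, was the lowest by mean log2 level in untreated cells and on day 4. Its median FPKM was 0.317 (0 to 589) in untreated cells, 0.304 (0 to 186) on day 2 and 1.72 (0 to 1267) on day 4, so that most day 4 cells still lacked a high value. It reached 20 FPKM in 6, 9 and 15 cells. The difference between day 4 and untreated was 1.97 (1.04, 2.54 and 2.33 in the plates).

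Cct7 (ENSMUSG00000030007, chr6:85451514-85468475, plus strand), the eta subunit, had a median FPKM of 0.712 (0 to 365) in untreated cells, 1.78 (0 to 158) on day 2 and 31.8 (0.0361 to 1373) on day 4. It reached 20 FPKM in 13, 14 and 20 cells. The difference between day 4 and untreated was 1.72 and nearly the same in each plate (1.84, 1.80 and 1.52).

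Cct4 (ENSMUSG00000007739, chr11:22990519-23003780, plus strand), the delta subunit, differed least. Its median FPKM was 0.609 (0 to 272) in untreated cells, 1.59 (0 to 366) on day 2 and 27.9 (0.0655 to 187) on day 4. It was the gene most often high in untreated cells, with 16 of 54 cells at 20 FPKM or more, followed by 20 of 54 and 19 of 36. Its mean FPKM hardly moved (38.7, 44 and 46.2). The difference in log2 means between day 4 and untreated was 1.30 (1.39, 2.02 and 0.50 in the plates).

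The order of the mean log2 levels was Cct5, Cct4, Cct7, Cct8, Tcp1, Cct6a, Cct3 and Cct2 in untreated cells and Cct5, Cct8, Tcp1, Cct6a, Cct7, Cct3, Cct4 and Cct2 on day 4. The largest step between neighbours was 0.62 in untreated cells, 0.58 on day 2 and 0.94 on day 4. The smallest SD over cells was 2.15, 2.16 and 2.78. That SD is the spread of single cells and not the error of a mean, and whether neighbours differ was not tested. By share of the summed FPKM, Cct8 took 10.1%, 33.7% and 24.7% at the 3 time points and Cct4 11.9%, 12.7% and 5.51%. Cct6a took 24.5% in untreated cells and 11.7% on day 4. FPKM divides by the gene length of the deposited table, which ran from 2557 bases for Cct2 to 6778 for Cct7. Whether these lengths match the transcripts present in these cells was not tested. Shares, orders, and the leading and lowest subunits given below therefore depend on them. The cells with the highest values also set much of the shares.

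A gene was called higher when its mean log2(FPKM + 1) was higher by at least 1 and the sign was the same in each of the 3 plates. Between day 4 and untreated this held for 8 of 8 CCT genes, beside 18.9% of all 8679 measured genes. The median difference of the CCT genes was 2.31 (range 1.30 to 3.30; 1.62, 2.55 and 1.94 in the plates), and that of all measured genes 0.45. Relative to this general shift, the differences ran from 0.86 for Cct4 to 2.85 for Cct8. Between day 4 and day 2, 7 of 8 were called, all but Cct4 (0.78), beside 9.57% of all genes. Their median there was 1.91, against 0.25 for all genes.

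Between day 2 and untreated, Cct8 alone was called (1.15, with 1.0, 1.41 and 1.04 in the plates), beside 3.89% of all genes. The median of the 8 genes was 0.40 (0.24, 0.20 and 0.97 in the plates) and that of all genes 0.21. Relative to the shift of all genes Cct8 was at 0.94, and 6 of the 8 changed sign from plate to plate, all but Cct8 and Cct6a. Cct5 was the most uneven, with 0.88, -0.86 and 2.52 in the plates. As a ratio of mean FPKM the median of the 8 was -0.49 on the log2 scale, below 0. In that measure single cells weigh heavily: 1 untreated cell held 51% of the Tcp1 signal, and the part of such cells in the sign was not tested. The comparisons of day 2 and of day 4 with untreated share the untreated cells. No CCT gene was called lower in any of the 3 comparisons.

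**Figure D2:**
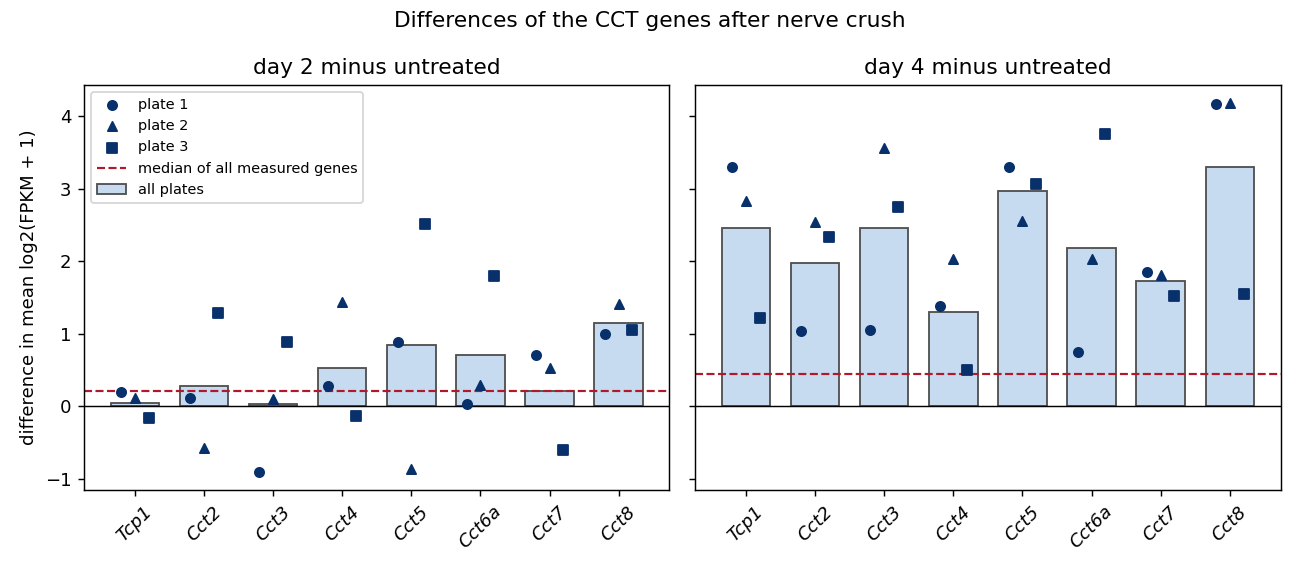
Bars give, for each CCT gene, the difference in mean log2(FPKM + 1) over all cells, the points give it within plate 1 (circle), plate 2 (triangle) and plate 3 (square), and the dashed line is the median of all 8679 measured genes. On day 2 the plates scatter around the bars on both sides of 0 for most genes, and on day 4 every point is above 0, with Cct4 in plate 3 the lowest at 0.50.

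The number of genes detected and the cell cycle genes moved with these differences. The 10 cell cycle genes listed (Mki67, Top2a, Mcm3, Mcm5, Mcm6, Pcna, Ccnb1, Cdk1, Stmn1 and Tyms) summed to a median of 12.8 FPKM in untreated cells (0.881 to 1518), 133 on day 2 (1.83 to 5400) and 426 on day 4 (1.79 to 3420), and none was at 0 in all cells of a time point. At least 3 of them were at 20 FPKM or more in 2 of 54, 10 of 54 and 20 of 36 cells. On day 4 the mean CCT level, the mean of the 8 log2 values in a cell, was 4.68 ± 1.43 in those 20 cells and 3.91 ± 1.42 in the other 16 (SD over cells). On day 2 it was 4.09 ± 1.44 in the 10 cells and 2.16 ± 1.08 in the other 44. The cells compared also differed in their median number of genes detected. It was 4821 in the 20 and 2884 in the 16 cells of day 4, and 4169.5 and 3238.5 on day 2. The part of that number in the contrast was not tested. Without the cells that held at least 3 cell cycle genes at 20 FPKM or more, the median CCT difference between day 4 and untreated was 1.82. When each cell's count of detected genes entered as a covariate it was 1.6, and for day 2 it was -0.073. Without the cells that held markers of another cell type it was 2.21 for day 4 and 0.17 for day 2, against 0.40 in all cells. The calls of Cct8 on day 2 and of Cct4 on day 4 depended on these choices. Cct8 on day 2 was at 0.57 without the cell cycle cells, 0.70 without the cells of other markers and 0.60 with the covariate, each below the 1 that a call needs. Cct4 on day 4 was at 0.90, 0.99 and 0.11. The other 7 genes stayed above 1 on day 4 in each of these 3 settings, the lowest being Cct7 at 1.11 with the covariate.

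Few untreated cells had many of the genes high at once. The median number of CCT genes at 20 FPKM or more was 1 in untreated cells, 2 on day 2 and 4 on day 4. None was high in 11 of 54, 11 of 54 and 0 of 36 cells; the last count allows a share of up to 8.33% by the limit of 3 counts, and of up to 9.74% by the exact 95% interval. At least 6 were high in 1 of 54 untreated cells (1.85%, exact 95% interval 0.0469% to 9.89%), 4 of 54 cells on day 2 (7.41%, 2.06% to 17.9%) and 14 of 36 cells on day 4 (38.9%, 23.1% to 56.5%), the last made up of 1, 8 and 5 of 12 cells in the plates. Plate 2, with the 8 cells, also had the deepest day 4 cells, with a median of 8.71 M reads and 5058 genes detected, against 5.18 M and 3563 in plate 1 and 4.72 M and 3597 in plate 3. These intervals and limits cover counting error only.

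All 8 genes at 20 FPKM or more were found in 0 untreated cells, 1 cell of day 2 and 6 cells of day 4. In 5 of these 6 day 4 cells Cct4 was the lowest subunit, at 25.7 to 46.4 FPKM, and in the other it was Cct2, at 30.7 FPKM. The day 2 cell had Cct4 lowest too, at 43.6 FPKM. The highest subunit in the 6 cells was Cct5 (4 cells) or Cct8 (2 cells), at 107 to 246 FPKM. The summed CCT level of the 6 cells was 445 to 851 FPKM, and lay well below the 4660 FPKM of the highest day 4 cell, in which Cct8 alone made up 70.5% and 2 of the 8 genes were high.

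**Figure D3:**
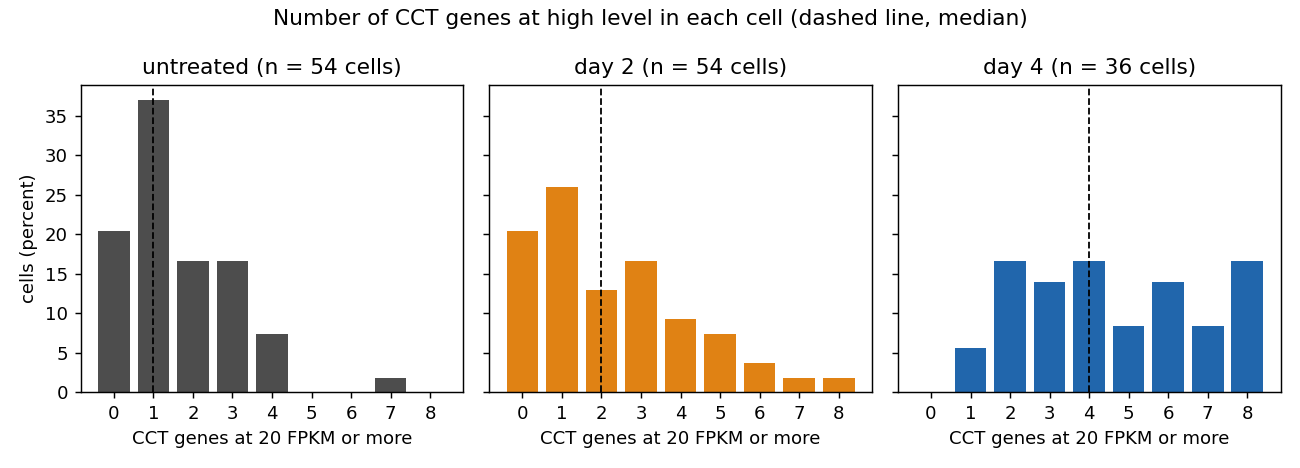
Bars give the percent of cells, on the vertical axis, by the number of CCT genes at 20 FPKM or more, on the horizontal axis, for the 54 untreated, 54 day 2 and 36 day 4 cells; the dashed line is the median. The median moves from 1 to 2 to 4, and cells with all 8 genes high number 0, 1 and 6.

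The signal of a cell was also spread over more subunits on day 4, when the median number of genes detected was higher too (2792, 3469 and 3958 at the 3 time points). Whether other sets of genes spread likewise, and the part of that number, was not tested. The leading subunit of a cell made up a median of 62.3% of its summed CCT FPKM in untreated cells, 52.7% on day 2 and 42.3% on day 4, and more than 50% in 37 of 54, 29 of 54 and 13 of 36 cells. The leading gene differed from cell to cell: Cct5 led in 13 untreated cells, Cct4 in 11 and Cct8 in 9, while on day 4 Cct5 and Cct8 led in 12 cells each and Cct4 in 1. Among the cells in which a gene was high, its median level was higher on day 4 than in untreated cells for 2 of the 8 genes, Cct8 (116, 99.8 and 193 FPKM at the 3 time points) and Tcp1 (62.1, 70.8 and 70.5). It was lower for the other 6, from Cct3 (69.2, 50.8 and 66.6) and Cct5 (161, 125 and 133) to Cct7 (120, 54.1 and 62.4) and Cct2 (167, 85.2 and 90.4). On day 4 a larger share of cells thus held each gene at a high level, while for 6 of the 8 the median in those cells was not higher. These medians depend on the threshold of 20 FPKM, set with these data in view. Some rest on few untreated cells, 6 for Cct2 and 8 each for Cct3 and Cct6a. The part of each in the day 4 differences was not tested.

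Depth differed between the time points, so reads were also thinned to 2 M a cell, which left out 4, 9 and 0 shallower cells and kept 50, 45 and 36. The share of cells with at least 5 reads of Cct2 was then 26%, 28.9% and 58.3%, that of Cct3 48%, 37.8% and 69.4%, and that of Cct8 68%, 66.7% and 94.4%. The median number of CCT genes with at least 5 reads was 5, 5 and 7. All 8 genes had a higher share on day 4 than at either earlier time. How many of all measured genes did so was not computed, so this count cannot be read as particular to CCT. Thinning evens the reads of the cells but not their number of genes detected, which was also highest on day 4.

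Summed over the 17 tubulin genes listed, a cell held a mean of 668 ± 572 FPKM when untreated, 1255 ± 1248 on day 2 and 1524 ± 1010 on day 4 (SD over cells). Summed over the 6 actin genes it held 958 ± 883, 1111 ± 604 and 1477 ± 673. The summed CCT level was 324 ± 392, 347 ± 569 and 839 ± 853. On day 2 the tubulin sum was above untreated in each plate (by 0.64, 1.23 and 0.82 as log2 ratios of plate means), and the CCT sum was not (0.36, -0.23 and 0.17). Between day 2 and day 4 it was the CCT sum that differed more in each plate (1.39, 0.95 and 1.40, against 0.08, 0.21 and 0.49 for tubulin). On means of the log2 sums, which single cells move less, the day 2 values were 0.66, 1.6 and 1.159 for tubulin and 0.35, -0.24 and 0.31 for CCT in the plates. The difference between these steps was not tested.

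Among the tubulins, 9 of 17 genes were measured, of which 3 were called higher on day 2 and 7 on day 4, beside 3.89% and 18.9% of all genes. Tubb5, a widely expressed beta tubulin, differed most: its mean was 43.7 FPKM in untreated cells, 112 on day 2 and 176 on day 4, and day 4 exceeded untreated by 3.00 (1.6, 2.98 and 4.42 in the plates). Tuba1b, an alpha tubulin, had means of 188, 520 and 589 FPKM, with differences of 1.44 on day 2 and 2.24 on day 4. Tuba1c, a close copy of it, had 60.1, 212 and 201 FPKM, with 1.48 and 2.13. Tubb6 was higher by 1.64 on day 4 but not called, since plate 1 was at -0.06. Of the actins, 2 of 6 were measured, the cytoplasmic Actb and Actg1, and both were called on day 4 (1.2 and 1.67) and neither on day 2 (0.44 and 0.97). These genes have close copies, and reads may be shared among them, which was not tested: 95.1% of the Actb values, 100% of the Actg1 values and 97.9% of the Tuba1b values above 0 were not whole reads.

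As a ratio of sums over all cells, there was 2.06 times as much tubulin as CCT signal in untreated cells, 3.62 on day 2 and 1.82 on day 4. For actin the ratios were 2.96, 3.20 and 1.76. Single cells weigh heavily in these sums. At each time point the cell with the most CCT signal was in plate 1. These 3 cells held 2177, 3993 and 4660 FPKM of CCT and 23.6, 39.6 and 6.71 FPKM of tubulin. The day 4 cell among them had 1071 genes detected and only 2 microglial genes at 20 FPKM or more. Its log2 ratio of tubulin to CCT was -9.24. The ratios without these cells were not computed. Per cell, the mean log2 ratio of actin to CCT was 2.01 ± 3.03 in untreated cells, 2.51 ± 2.36 on day 2 and 1.11 ± 1.62 on day 4 (SD over cells). It was lower on day 4 than in untreated cells in all 3 plates (-1.43, -0.68 and -0.58). The mean log2 ratio of tubulin to CCT was 1.19 ± 2.80, 2.19 ± 2.56 and 0.80 ± 2.17. It was above untreated in all 3 plates on day 2 (0.31, 1.84 and 0.85). Between day 4 and untreated it differed by -0.39 in all and by -2.00, 0.68 and 0.17 in the plates, so that plate 1 alone gave the sign, and without plate 1 the value was 0.42. Each of these differences was smaller than the SD over cells, which is the spread of single cells, and none was tested.

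**Figure D4:**
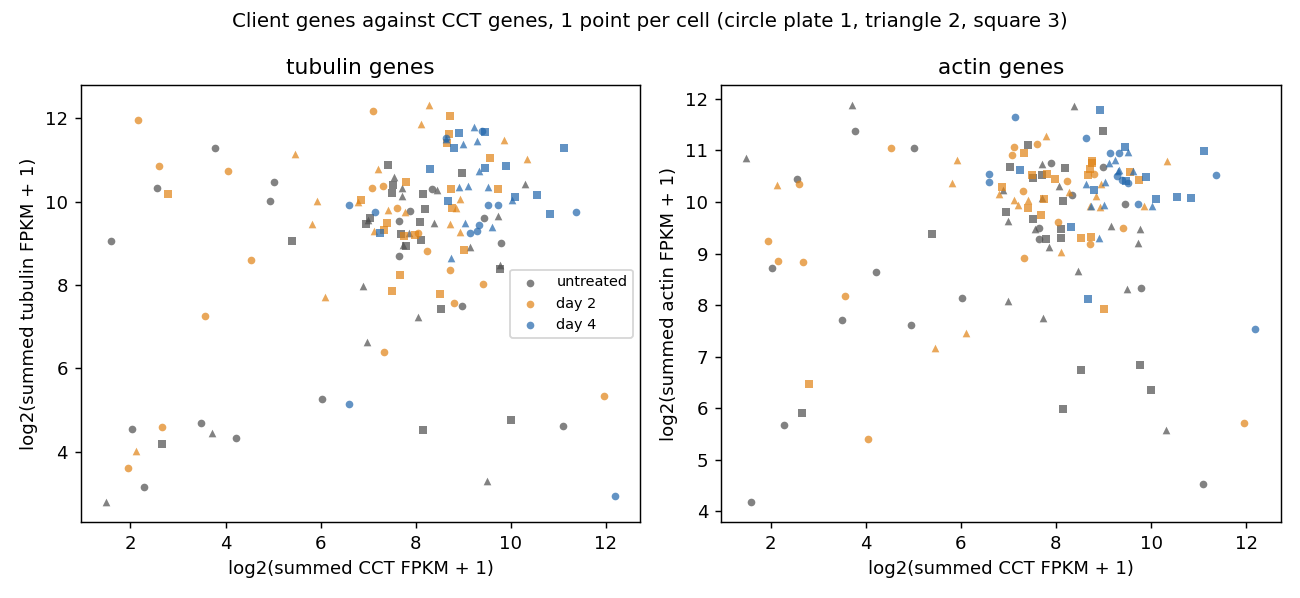
Each point is a cell, with log2(summed CCT FPKM + 1) on the horizontal axis and the same for the summed tubulin genes (left) or actin genes (right) on the vertical axis; colours give the time point and shapes the plate. Day 4 cells lie to the right, between 95.1 and 4660 FPKM of summed CCT, while untreated cells reach down to 1.80 FPKM, and within a time point the points form no narrow line.

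From cell to cell within a time point and plate, CCT and its clients went together only weakly. Over all cells, after centring on time point and plate, the mean CCT level correlated with the tubulin sum at r = 0.23 and with the actin sum at r = 0.13. Over 3575 other genes detected in at least 30% of cells, the median r was 0.17 and the 90th percentile 0.30, so that the clients stood within the range of other genes. When each cell's count of detected genes entered as a covariate, the values were 0.079 for tubulin and -0.071 for actin. The CCT mean correlated with that number at r = 0.62 and with log2 reads at r = -0.004. Points that share a cell share its library and its number of detected genes, and correlations this weak in single cells are given only as a description.

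The subunits were hardly closer to each other. Over the 28 pairs of CCT genes the median r was 0.10, from -0.12 for Cct2 and Cct4 to 0.25 for Cct7 and Cct8, and 25 of 28 were above 0. Over all pairs of the 3583 genes detected in at least 30% of cells the median r was 0.07. The share of all gene pairs above 0 was not computed. Cct8 and Cct3 followed the mean of the other 7 most closely (0.31 and 0.29) and Cct4 least (0.07). Once each cell's count of detected genes entered as a covariate, the median over the 28 pairs was 0.03 and 16 of 28 were above 0. Over all gene pairs the median was then 0.009. Against the mean of the other 7, Cct8 was then at 0.20, Cct3 at 0.09 and Cct4 at -0.18. The genes most like the CCT mean among 2247 candidates were Tpi1 (r = 0.51), C1qbp (0.49), Tpi-rs11 (0.49), Acat3 (0.47), Cdk4 (0.46), Ranbp1 (0.45), Creld2 (0.45), Vmp1 (0.44), Nrm (0.43) and Pebp1 (0.43). With each cell's count of detected genes as a covariate these values were lower, from 0.20 for Nrm and 0.21 for Vmp1 to 0.38 for Acat3, and Cdk4, Creld2, Vmp1 and Nrm were no longer among the 10 highest. Acat3 overlaps Tcp1 in the genome, and Tpi-rs11 has a symbol derived from that of Tpi1, so that neither need be a separate measurement. On day 4 Ranbp1 was the highest of the 10 above untreated, by 3.56 (3.16, 4.20 and 3.32 in the plates).

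Prefoldin delivers the clients to CCT. Of its 6 genes, all measured, 0 were called on day 2 and 1 on day 4, a share near the 18.9% of all genes. The gene was Pfdn6 (1.6, with 2.30, 1.08 and 1.41 in the plates). The list's median on day 4 was 0.93, against 2.31 for the CCT genes and 0.45 for all genes. Pfdn1 was at 1.34 and Pfdn2 at 1.11, and both were below 0 in plate 3 (-0.58 and -0.05). The summed prefoldin level was 331 ± 619, 278 ± 448 and 355 ± 354 FPKM (SD over cells), and prefoldin relative to CCT was lower on day 4 than in untreated cells by 2.04 and 1.23 in plates 1 and 3 and higher by 0.20 in plate 2, as mean log2 ratios. The phosducin-like cochaperones of CCT had 2 of 4 genes measured and 0 called on day 2 or day 4; Pdcl3 was at 0.996 on day 4 (-0.13, 0.82 and 2.30 in the plates) and Txndc9 at 0.16.

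Of the 6 tubulin cofactor genes, which act after CCT, 0 were called on day 2 and 3 on day 4, beside 3.89% and 18.9% of all genes: Tbcb (2.04), Tbca (1.72) and Tbcd (1.14), and Arl2 was at 0.38. The list's median was 0.76. Of the 6 actin-related genes, 3 were called on day 4, beside the same 18.9%, namely Actr3 (1.98), a subunit of the actin-branching Arp2/3 complex, Actl6a (1.57), found in chromatin remodelling complexes, and Actr1b (1.44), of the dynactin complex. Actr2 was at 0.99. Of 11 other listed client genes that were measured, 1 was called, a share below the 18.9% of all genes: Pcna (1.92), the sliding clamp of DNA replication, which is also among the cell cycle genes above. Cdc37, a cochaperone of Hsp90, was at 1.09 but at -0.997 in plate 3, and Stat3 (0.93) and Ppp2r2a (0.79) were not called.

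Of the other chaperones, Hsp90ab1, the constitutive cytosolic Hsp90, was higher by 2.77 (3.35, 3.55 and 1.41 in the plates), and Hsp90aa1 by 2.18. Hspa4, an exchange factor of Hsp70, was higher by 1.81, and Dnaja1 was at 1.58 but at -0.24 in plate 3. Of the 9 measured genes of this list 4 were called on day 4 and 0 on day 2, beside 18.9% and 3.89% of all genes, with list medians of 1.25 and 0.34 and medians of all genes of 0.45 and 0.21. For the mitochondrial chaperonin, Hspe1 was called (2.71, with 1.97, 2.24 and 3.92 in the plates). Its partner Hspd1 was at 1.25 and not called, with -0.04 in plate 3. Of the transcription factors listed as regulators of chaperone genes, Myc was called (1.54, with 0.60, 3.17 and 0.83 in the plates), whereas Hsf1 was at 0.31 and Max at 0.33.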

How the data were processed

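Single cells of the retina were sequenced after cDNA amplification and Nextera XT tagmentation, per the labels' protocols. The submitters' processing notes name featureCounts 1.6.1, STAR 2.7.2b, cutadapt 1.16, Trimmomatic 0.36 and Trim Galore 0.4.4, and the builds GRCm38.p6 and mm10. Settings of these tools, such as the treatment of reads with several matches, were not given in the sources used here. From them the authors deposited FPKM values in 1 table of 55364 rows, 1 column a cell. FPKM times gene length summed to 1e+09 in every cell. No mitochondrial gene is among the rows (0).

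The reads of a cell were recovered from the commonest step of FPKM times length. A median of 58.1% of values were whole reads within 0.01 read, so no count model was fitted. Means over cells of log2(FPKM + 1) were compared, a scale that understates the change of low genes. The genes and lists were chosen with earlier results of these data known. The named genes were the 8 members, up to 4 measured genes of each list with the largest difference between day 4 and untreated, and the 10 genes most like the CCT mean. From the last, ribosomal protein genes, unnamed gene models and symbols with -ps were left out. Pseudogenes with other symbols were not removed. Where several rows had 1 symbol, that of the highest mean was kept (110 rows were dropped). The rule for calling a gene was tried on resampled untreated cells in which the values of some genes were raised. The recovery of reads was tried on simulated whole counts, unlike the many values here that were not whole reads. The ratios, correlations, thinning and counts of subunits were not tried on simulated data. Python 3.11.15, numpy 2.4.6, pandas 2.3.3 and matplotlib 3.10.9 were used.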

Additional observations from a re-analysis of the deposited data

How the results depend on the processing

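The median CCT difference between day 4 and untreated, 2.31, was 2.81 with a pseudocount of 0.1, 1.30 with a pseudocount of 10, 1.41 as a log2 ratio of mean FPKM, 1.6 with each cell's count of detected genes as a covariate and 1.82 without the cells holding cell cycle genes. Leaving out a plate gave 2.07 to 2.62. The count of 8 genes called was 6 with a pseudocount of 10, 7 after centring on the median of all genes and 7 without plate 2. For day 2 against untreated, the median of 0.40 was -0.49 as a ratio of mean FPKM and -0.073 with the covariate, 0.17 without the cells holding markers of another cell type, and 0.16 to 0.57 when a plate was left out. The 1 gene called was 0 with a pseudocount of 10 and 0 after centring, and 1 to 2 when a plate was left out. The median difference between day 4 and day 2 ran from 1.157 to 2.38 over its settings. Over the 8 genes and their settings, 104 of 104 values were above 0 for day 4 against untreated, 104 of 104 for day 4 against day 2 and 76 of 104 for day 2 against untreated. These values recompute the same cells and are not separate observations, and the setting with plates weighted equally only repeats the reported values. The genes were chosen because these cells showed them higher at day 4, so the day 4 counts lend no support. Cells with all 8 genes at 1 FPKM or more numbered 1, 7 and 6 in untreated, day 2 and day 4 cells. At 5 FPKM they numbered 0, 2 and 6, and at 20 FPKM 0, 1 and 6. The contrast of day 2 with day 4 thus depended on the threshold. The correlation with the tubulin sum was 0.38 uncentred and 0.079 with the covariate, and that with the actin sum 0.30 and -0.071. The removal of cells with cell cycle genes or other markers, and the thinning, were chosen after seeing the data. Without the filter on low values 0.614%, 3.00% and 1.52% of all genes were called higher in the 3 comparisons, since most genes are near 0. The causes were not tested. Every plate held cells of the 3 time points, with equal numbers per plate within each time point. Weighting plates equally must then return the same medians (0.40, 2.31 and 1.91), so it says nothing about the plates.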
